A study of Mus musculus with 5 samples.

Results

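Goblet cells are the mucus-secreting cells of the intestinal epithelium, and 9 of the genes that define them or their product were followed here in mouse colon after activation of the interleukin 11 receptor. The genes were Atoh1, Spdef, Agr2, Muc2, Fcgbp, Clca1, Zg16, Tff3 and Spink4. They were taken by name, and all of their probes on the arrays were used, which gave 10 of 56605 probes and 9 of the 32917 features tested. Whole-colon RNA was compared between 2 wild-type C57BL/B6 mice labelled Control and 3 labelled NT-3N 3 hr, whose colon was removed 3 hr after intravenous injection of NT-3N, an agonist of the interleukin 11 receptor. The study describes NT-3N as a human IL-11 with an altered linker that is more stable and more active, and gives the age of the mice as 8 weeks. No genotype, allele or other treatment separates the groups in the labels. The labels name no vehicle injection for Control, so the effect of injecting and that of NT-3N cannot be told apart.

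A goblet cell arises in the crypt when a progenitor escapes Notch signalling and switches on Atoh1, the basic helix-loop-helix factor on which all secretory lineages of the gut depend. Spdef, an ETS-family factor acting after Atoh1, drives goblet cell maturation and the secretory programme. The mature cell folds very large amounts of the gel-forming mucin Muc2 with the help of the disulfide isomerase Agr2, packs it into granules and releases it together with Fcgbp, Clca1, Zg16 and Tff3 to form the mucus that keeps bacteria away from the colonic surface. IL-11 acts through its receptor chain and gp130 and activates STAT3.

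To show the DNA in front of the lineage factors and of secreted mucus genes, the 250 bases before the start of transcription are given. They are printed for both transcription factors and for 2 of the mucus genes. They come from a RefSeq promoter table of build GRCm38.p6, in which 5 of the 9 genes were found (Atoh1, Spdef, Agr2, Muc2 and Fcgbp). No entry was matched for Tff3, Clca1, Zg16 or Spink4. The Atoh1 window is chr6:64728875-64729124 on the plus strand, the Spdef window chr17:27728952-27729201 on the minus strand, the Muc2 window chr7:141690090-141690339 on the plus strand and the Fcgbp window chr7:28070986-28071235 on the plus strand. All are written 5′ to 3′ along the gene, and capitals mark the hexamer CAGCTG, an E-box form.
Atoh1: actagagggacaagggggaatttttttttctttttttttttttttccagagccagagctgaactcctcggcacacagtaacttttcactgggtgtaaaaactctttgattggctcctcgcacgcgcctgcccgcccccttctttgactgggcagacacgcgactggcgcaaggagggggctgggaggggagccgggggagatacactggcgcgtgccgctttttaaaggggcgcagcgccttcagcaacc
Spdef: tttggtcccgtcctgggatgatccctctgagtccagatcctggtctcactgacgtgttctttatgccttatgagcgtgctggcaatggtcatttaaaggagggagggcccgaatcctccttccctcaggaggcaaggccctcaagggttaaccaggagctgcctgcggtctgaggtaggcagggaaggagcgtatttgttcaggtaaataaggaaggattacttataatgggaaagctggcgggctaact
Muc2: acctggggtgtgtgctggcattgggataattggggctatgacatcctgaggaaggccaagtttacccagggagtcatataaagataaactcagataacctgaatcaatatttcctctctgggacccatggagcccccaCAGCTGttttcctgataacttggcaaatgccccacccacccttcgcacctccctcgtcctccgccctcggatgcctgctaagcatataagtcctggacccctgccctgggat
Fcgbp: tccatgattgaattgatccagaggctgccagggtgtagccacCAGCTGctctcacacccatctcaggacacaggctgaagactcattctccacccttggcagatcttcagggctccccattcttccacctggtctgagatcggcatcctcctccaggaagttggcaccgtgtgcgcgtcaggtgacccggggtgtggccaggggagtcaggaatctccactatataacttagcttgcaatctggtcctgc
CAGCTG was searched on both strands and lay 112 to 107 bases before the start of Muc2 and 208 to 203 bases before that of Fcgbp. It was in 2 of the 5 windows of these genes and in 13.0% of 32851 windows of the same length in the table. The E-box form CAGATG was in 0 of the 5 and in 14.4% of all windows, and the STAT-type sequence TTCNNNGAA, where N is any base, was in 0 of the 5 and in 7.02% of all windows. TATAAA was found in the Muc2 window, 174 to 169 bases before the start, and in 12.4% of all windows. CAGCTG reads the same on both strands, and its match in the Muc2 window does not overlap that of TATAAA. These matches describe the letters of the windows and say nothing about binding.

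Each array carried Cy3-labelled RNA of 1 sample, all 5 lay on 1 slide with 1 scan time, and no spot was saturated. The share of probes well above background was between 70.58% and 72.9% per array, and the median processed signal lay between 91.86 and 114.94. The labelled tissue was borne out by its markers: 9 of 10 pan-epithelial markers and 10 of 10 absorptive colonocyte markers were well above background on all 5 arrays, as were 6 genes of the posterior Hox type that mark the distal hindgut, among them Hoxb13 and Hoxd13. The region of the colon that was sampled is not given in the labels. All 10 probes of the 9 goblet cell and mucus genes were well above background on all 5 arrays. Values are log2 of the processed signal after quantile normalization, a gene with several probes is represented by its brightest probe, and levels are compared between arrays for 1 gene but not between genes.

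NT-3N replicate 1 stood apart from the other arrays for these genes. It had the lowest value of the 5 arrays for 8 of the 9 genes, whereas it was the lowest array for 25.6% of all features and for 22.4% of the features in the top 5% by level. The count was 7 of 9 under scaling to the 75th percentile or to the median of each array. Centred on each gene's mean over the arrays, the mean of the 9 genes was 0.10 in Control replicate 1, 0.27 in Control replicate 2, -0.45 in NT-3N replicate 1, 0.10 in NT-3N replicate 2 and -0.02 in NT-3N replicate 3. Their signals summed to 1308224 and 1422988 in the Control arrays and to 963436, 1461299 and 1262533 in NT-3N replicates 1, 2 and 3. The 9 pan-epithelial markers that were tested had centred means between -0.04 and 0.03 on the 5 arrays, and NT-3N replicate 1 was the lowest array for 3 of them. All 6 distal hindgut position genes were lowest on that array under each of 3 scalings, with centred means of 0.00 and -0.05 in Control and -0.49, 0.36 and 0.18 in NT-3N. Their summed signal was 38238 and 28855 in Control and 25669, 45551 and 44868 in NT-3N, and the part of tissue position in the values of the goblet cell genes was not tested. The comparison of each of the 9 genes is therefore given with and without NT-3N replicate 1. That array was picked for its low values and lay below the mean of NT-3N replicates 2 and 3 for all 9 genes. The rise of each estimate without it follows from that choice. It also had the lowest centred mean in other lists described below, among them the enteroendocrine (-0.38), smooth muscle (-0.32), granule release (-0.31) and transmembrane mucin (-0.30) lists.

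limma called 0 of the 9 genes at an adjusted p under 0.05, beside 0.143% of all features in either direction and 0.0182% as lower in NT-3N. With every probe as a feature of its own it called 0 of the 10 probes, beside 0.168% of all probes tested. At an unadjusted p under 0.05 there were 2, Atoh1 and Spdef, both lower in NT-3N, where 9.62% of all features passed and 4.67% did so as lower. The arrays of the groups did not overlap for the same 2 genes, where 28.4% of all features had groups without overlap, 14.8% with NT-3N lower. All 9 log2 fold changes were below 0, as were 53.6% of those of all features, with a median of -0.19 against -0.02 over all features. With NT-3N replicate 1 left out, limma called 0 of the 9 and 0.264% of all features. At an unadjusted p under 0.05 there were then 3 (Atoh1, Spdef and Zg16), beside 15.7% of all features, the median was -0.10 and 3 of the 9 were above 0. A local-pooled-error test, the kind of test named in the methods of the study, called Atoh1 and Spdef, where it called 1.17% of all features. This test compares group medians, so its log2 fold changes are differences of medians. Its spread comes from features of like level and not from the gene's own arrays. Where a value is lower in whole tissue, fewer goblet cells, less RNA per goblet cell and another tissue position cannot be told apart.

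**Figure D1:**
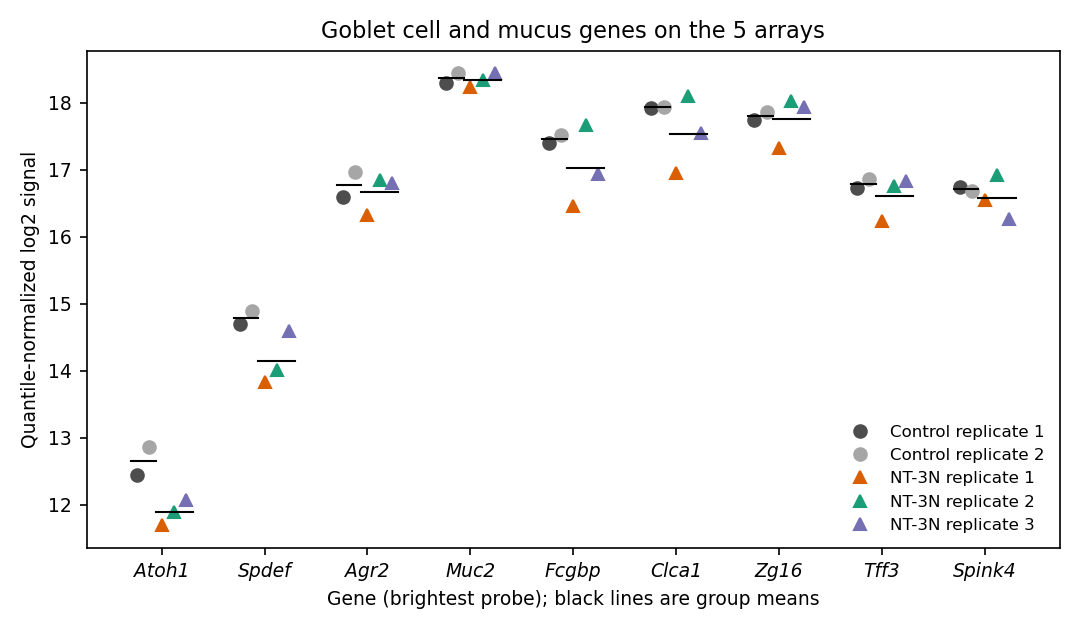
Quantile-normalized log2 signal (y axis) of the brightest probe of each gene (x axis) on each of the 5 arrays, with circles for Control, triangles for NT-3N and black lines for group means. Atoh1 and Spdef are the genes whose NT-3N arrays all lie below both Control arrays, and NT-3N replicate 1 is the lowest array for every gene except Spink4, and except Muc2 too under 75th percentile scaling.

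The transcription factor Atoh1, which commits progenitors to the secretory lineage, had log2 signals of 12.44 and 12.86 in Control and 11.69, 11.89 and 12.06 in NT-3N. All NT-3N arrays lay below both Control arrays, and NT-3N replicate 3 was the closest to them. The group means were 12.65 ± 0.30 (SD, n = 2) and 11.88 ± 0.19 (SD, n = 3). The log2 fold change was -0.76 (SE 0.16), which is 0.589 of the Control level with an unadjusted 95% interval from 0.449 to 0.772. Its unadjusted p in limma was 0.00279, and its adjusted p was 0.22, so the difference did not pass the threshold over all features. Without NT-3N replicate 1 the log2 fold change was -0.67, with an unadjusted 95% interval from -1.05 to -0.29 and a limma adjusted p of 0.16. The distance from Control replicate 2 to Control replicate 1 was 0.42, more than the 0.37 spanned by the NT-3N arrays.

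Spdef, the goblet cell maturation factor that acts after Atoh1, had log2 signals of 14.69 and 14.89 in Control and 13.83, 14.00 and 14.59 in NT-3N. NT-3N replicates 1 and 2 lay well below Control, while NT-3N replicate 3 was close under the lower Control array. The means were 14.79 ± 0.14 (SD, n = 2) and 14.14 ± 0.40 (SD, n = 3). The log2 fold change was -0.65 (SE 0.22), or 0.638 of the Control level with an interval from 0.441 to 0.923, with limma p of 0.0243 before and 0.44 after adjustment. Without NT-3N replicate 1 the log2 fold change was -0.49, with an unadjusted p of 0.0491 and an adjusted p of 0.32. Without NT-3N replicate 3, the array nearest to Control, it was -0.87.

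Agr2, the disulfide isomerase of the endoplasmic reticulum needed to make Muc2, had log2 signals of 16.59 and 16.96 in Control and 16.33, 16.85 and 16.80 in NT-3N. NT-3N replicates 2 and 3 lay between the Control arrays and only NT-3N replicate 1 was below them. Over all arrays the log2 fold change was -0.11 (SE 0.18), or 0.923 of the Control level with an interval from 0.679 to 1.26, and the limma adjusted p was 0.87. Without NT-3N replicate 1 it was 0.05.

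Muc2, the gel-forming mucin that is the scaffold of colonic mucus, had log2 signals of 18.30 and 18.44 in Control and 18.24, 18.34 and 18.44 in NT-3N with its brightest probe. The groups overlapped. The means were 18.37 ± 0.10 (SD, n = 2) and 18.34 ± 0.10 (SD, n = 3), and the log2 fold change was -0.03 (SE 0.08), with a limma adjusted p of 0.93. The fold was 0.981 with an interval from 0.859 to 1.12, the narrowest of the 9 intervals, and the log2 fold change without NT-3N replicate 1 was 0.02. This probe ranked between 2 and 7 among all noncontrol probes on the arrays, and quantile normalization gives each rank the same value on every array, so Control replicate 2 and NT-3N replicate 3, both at rank 2, share 18.44. Before scaling, its processed signal was 324615 and 363572 in Control and 303288, 329814 and 356171 in NT-3N. Scaled to each array's 75th percentile, its log2 values were 18.46 and 18.42 in Control and 18.41, 18.12 and 18.36 in NT-3N, so that NT-3N replicate 2 and not 1 was the lowest array and the NT-3N arrays lay just below Control without overlap. The log2 fold change was then -0.145, and it was -0.122 under median scaling and -0.157 with both probes averaged, with limma adjusted p of 0.71, 0.76 and 0.75. The dimmer Muc2 probe had log2 signals of 13.08 and 13.56 in Control and 12.79, 13.02 and 13.28 in NT-3N. Its arrays overlapped, its log2 fold change was -0.29 (SE 0.19), and its limma adjusted p was 0.68 with every probe as a feature of its own.

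Fcgbp, a large mucus protein bound to Muc2, had log2 signals of 17.39 and 17.51 in Control and 16.46, 17.66 and 16.94 in NT-3N. NT-3N replicate 2 was the highest of all arrays, while replicates 1 and 3 were the lowest. Its log2 fold change was -0.43 (SE 0.32), or 0.741 of the Control level with an interval from 0.437 to 1.26, and the limma adjusted p was 0.70. Leaving out NT-3N replicate 1 gave -0.15.

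Clca1, a metalloprotease secreted into mucus, had log2 signals of 17.92 and 17.94 in Control and 16.95, 18.11 and 17.55 in NT-3N. The order of the arrays was like that of Fcgbp, with NT-3N replicate 2 above Control and replicates 1 and 3 below it. The difference in means gave a log2 fold change of -0.39 (SE 0.30), or 0.762 of the Control level with an interval from 0.461 to 1.26, and the limma adjusted p was 0.72. It was -0.10 without NT-3N replicate 1.

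Zg16, a lectin-like mucus protein that binds Gram-positive bacteria, had log2 signals of 17.74 and 17.87 in Control and 17.32, 18.03 and 17.94 in NT-3N. NT-3N replicates 2 and 3 were above both Control arrays and replicate 1 was below them. On all 5 arrays the log2 fold change was -0.04 (SE 0.21), or 0.973 of the Control level with an interval from 0.688 to 1.38, and the limma adjusted p was 0.97. Without NT-3N replicate 1, which was picked for its low values, the sign turned, to 0.18. The unadjusted p in limma was then 0.0370 and the adjusted p 0.29.

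Tff3, the trefoil peptide that goblet cells secrete for epithelial repair, had log2 signals of 16.72 and 16.86 in Control and 16.24, 16.75 and 16.82 in NT-3N. All arrays but NT-3N replicate 1 lay close together. This gave a log2 fold change of -0.19 (SE 0.18), or 0.877 of the Control level with an interval from 0.653 to 1.18, and the limma adjusted p was 0.76. The value without NT-3N replicate 1 was -0.0047.

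Spink4, a Kazal-type protease inhibitor made by goblet cells, had log2 signals of 16.74 and 16.68 in Control and 16.55, 16.92 and 16.26 in NT-3N. It was the exception among the 9, with NT-3N replicate 3 as its lowest array. The log2 fold change was -0.14 (SE 0.18), or 0.910 of the Control level with an interval from 0.675 to 1.23, and the limma adjusted p was 0.83. It changed little without NT-3N replicate 1, at -0.12.

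**Figure D2:**
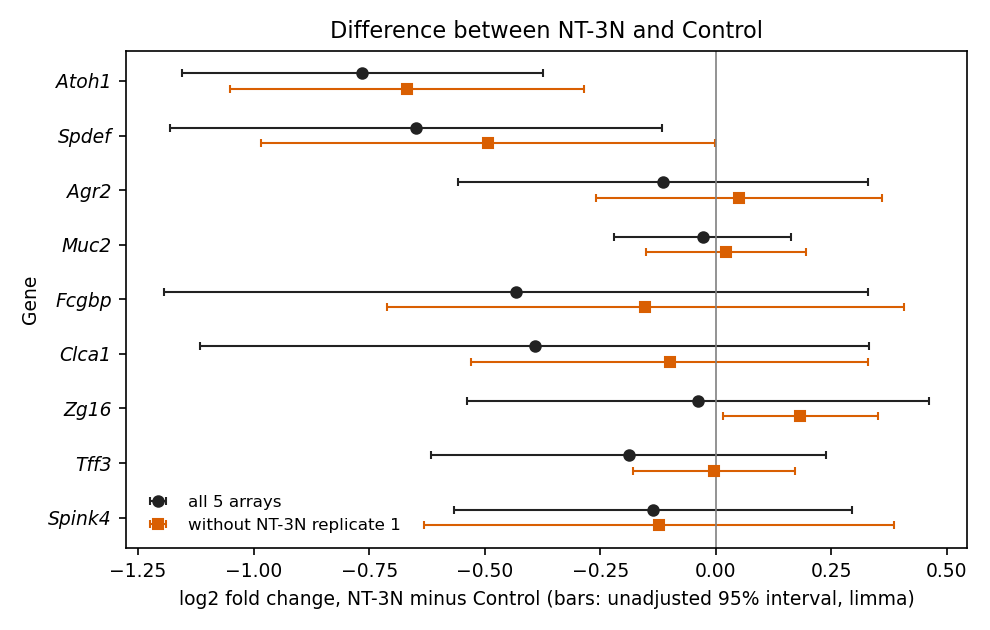
Log2 fold change of NT-3N over Control (x axis) for each gene (y axis) with its unadjusted 95% interval from limma, over all 5 arrays (black circles) and without NT-3N replicate 1 (orange squares). The intervals of Atoh1 and Spdef lie below 0 in both fits, that of Spdef only just without NT-3N replicate 1. Without that array each of the 9 estimates is higher, those of Zg16, Agr2 and Muc2 past 0. This rise follows from picking the array for its low values in these genes.

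The 9 genes did not vary alike. Over the 5 arrays, the SD of Fcgbp was 0.49, that of Atoh1 0.46, that of Clca1 0.46 and that of Spdef 0.46, each above at least 92.9% of the features well above background on all arrays. Muc2 had an SD of 0.09 with its brightest probe, above 13.7% of these features. That probe ranked between 2 and 7 on the arrays, where quantile normalization sets the value by rank. Its SD was 0.10 within Control and 0.10 within NT-3N, while the dimmer Muc2 probe had 0.34 and 0.25. The SDs of Tff3, Zg16, Agr2 and Spink4 lay above between 67.7% and 74.1% of these features. NT-3N replicate 1 differed from the mean of NT-3N replicates 2 and 3 by -0.88 for Clca1, -0.84 for Fcgbp, -0.67 for Zg16, -0.55 for Tff3, -0.50 for Agr2, -0.46 for Spdef, -0.29 for Atoh1, -0.15 for Muc2 and -0.04 for Spink4. Tff3 was closest to the mean pattern of the 9, with a root mean square difference of 0.0888 on the log2 scale, and Spdef was farthest, at 0.283. Among 16725 other genes with a symbol and a signal well above background on every array, the patterns most like the mean of the 9 were those of Tagln3 at 0.0243, Tmem45a at 0.0284, Gnb4 at 0.0334, Dnm3 at 0.0345 and Pdxk-ps at 0.0359, beside a median difference of 0.273. With 5 arrays such likeness is a description.

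Other goblet products were counted from a list of 20 secreted or goblet-enriched genes of the gut. Of these, 19 had a probe and were tested. limma called 0 of the 19, beside 0.143% of all features, and 0 had an unadjusted p under 0.05, beside 9.62%. The local-pooled-error test called 5 (Ang4, Itln1, Retnlb, Sval1 and Tgm3), beside 1.17% of all features. Of the 19, 14 had a log2 fold change below 0, beside 53.6% of all features, and the median was -0.17. The same shares stand beside the counts of the lists below. NT-3N replicate 1 was the lowest array for 8 of the 19. The centred mean of the list was 0.16 and 0.25 in Control and -0.26, 0.21 and -0.35 in NT-3N, and the low value of NT-3N replicate 3 rested on Ang4, Itln1 and Retnlb. Without these 3 genes, left out after their values were seen, it was 0.02 and 0.10 in Control and -0.16, -0.0074 and 0.06 in NT-3N. Ang4, a secreted ribonuclease with antimicrobial activity, had log2 signals of 15.12 and 15.39 in Control and 12.84, 15.54 and 11.34 in NT-3N. Itln1, a secreted lectin, had 12.27 and 12.32 in Control and 10.31, 12.65 and 8.21 in NT-3N. For both, NT-3N replicate 2 was above the Control arrays while replicates 1 and 3 were far below them. Their log2 fold changes were -2.01 (SE 1.09) for Ang4 and -1.91 (SE 1.14) for Itln1, with limma adjusted p of 0.62 and 0.65. At the other end, Tgm3, a transglutaminase that crosslinks mucus, had 13.08 and 12.29 in Control and 12.83, 13.65 and 13.60 in NT-3N with its brightest probe. The log2 fold change of Tgm3 was 0.68 at a limma adjusted p of 0.56, and 0.33 at 0.61 with its 2 probes averaged. Sval1 had a log2 fold change of 0.17 at an adjusted p of 0.93.

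Of 14 transcription factors and Notch components of the secretory lineage other than Atoh1 and Spdef, limma and the local-pooled-error test called 0. There was 1 with an unadjusted p under 0.05 in limma, 5 had a log2 fold change above 0 and 9 below, and the median was -0.03. The forkhead factor Foxa3 had log2 signals of 10.13 and 10.54 in Control and 9.53, 10.03 and 10.09 in NT-3N, with all NT-3N arrays below Control, a log2 fold change of -0.46, an unadjusted p of 0.0696 and a limma adjusted p of 0.56. The intestinal identity factor Cdx2 had 14.09 and 13.99 in Control and 13.99, 13.29 and 13.48 in NT-3N, a log2 fold change of -0.46, with limma p of 0.0580 before and 0.54 after adjustment. Here NT-3N replicate 1 was just below the lower Control array and replicates 2 and 3 were the low ones. Dll4, a Notch ligand, had 6.27 and 6.50 in Control and 6.88, 6.76 and 6.83 in NT-3N, all above Control, with a log2 fold change of 0.44, an unadjusted p of 0.0277 and a limma adjusted p of 0.46. The Notch ligand Dll1 had a log2 fold change of 0.20 at an adjusted p of 0.72.

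The machinery that folds secreted proteins and answers endoplasmic reticulum stress was tested with 19 genes, of which limma and the local-pooled-error test called 0 and 3 had an unadjusted p under 0.05 in limma (Ddit3, Atf4 and Atf6), beside 9.62% of all features. There were 4 with a log2 fold change above 0 and 15 below, with a median of -0.12, and 11 of the 19 were lowest on NT-3N replicate 1. Ddit3, the stress-induced factor CHOP, had log2 signals of 9.32 and 9.36 in Control and 8.95, 8.93 and 9.04 in NT-3N. Its groups did not overlap, as for 28.4% of all features, and its log2 fold change was -0.37 with an unadjusted p of 0.0103 and a limma adjusted p of 0.35. Atf4, a factor of the integrated stress response, had a log2 fold change of 0.22 with an adjusted p of 0.38, and Atf6, a stress sensor of the endoplasmic reticulum, had 0.30 with 0.43, both with all NT-3N arrays above Control. Calr, a chaperone for glycoproteins, had a log2 fold change of -0.31 at an adjusted p of 0.57.

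Enzymes that build the sugar chains of mucins were represented by 22 tested genes, with 0 called by limma, 1 at an unadjusted p under 0.05 (Fut2) and 1 called by the local-pooled-error test (B3galt5). Of these genes 6 were above 0 and 16 below, with a median log2 fold change of -0.10. Fut2, the fucosyltransferase that makes the H antigen on mucus, had log2 signals of 8.61 and 8.32 in Control and 8.92, 8.99 and 8.90 in NT-3N. All NT-3N arrays were above Control, and NT-3N replicate 1 lay between the other two. Its log2 fold change was 0.47 (SE 0.13), an unadjusted p of 0.00892 and a limma adjusted p of 0.34. B3galt5, a galactosyltransferase, had 14.75 and 14.73 in Control and 14.73, 15.44 and 15.43 in NT-3N, a log2 fold change of 0.46 at an adjusted p of 0.57. NT-3N replicate 1 was at the Control level for B3galt5 and the other NT-3N arrays were above it. Without replicate 1 limma called the gene, at 0.69 with an adjusted p of 0.0298, beside 0.264% of all features. Replicate 1 was the lowest NT-3N array for B3galt5, so the rise of this estimate follows from leaving it out. B4galnt2, which adds the terminal sugar of the Sda antigen, had a log2 fold change of -0.27 with an adjusted p of 0.74, and Galnt12, an enzyme that starts O-linked chains, had -0.25 with 0.61.

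Granule release and the ion transport that unfolds mucus were followed with 15 genes, of which limma and the local-pooled-error test called 0 and 0 had an unadjusted p under 0.05, with 5 above 0, 10 below and a median log2 fold change of -0.14. Of these, 11 were lowest on NT-3N replicate 1. Without that array the median was 0.07 with 9 of 15 above 0, where 53.5% of all features were below 0. This rise follows from leaving out the array that was lowest for most of the list. The exocytosis gene Myrip had a log2 fold change of -0.49, and Slc12a2, the basolateral chloride loader, and Unc13b, a priming factor for vesicle fusion, had 0.18 and 0.12, with limma adjusted p between 0.60 and 0.81. Of the transmembrane mucins, which coat enterocytes and goblet cells rather than being secreted, 4 were tested. Both tests called 0, 0 had an unadjusted p under 0.05, 3 were above 0, and the median was 0.04. Muc1 had log2 signals of 7.98 and 7.75 in Control and 7.57, 8.77 and 8.86 in NT-3N, a log2 fold change of 0.54 at an adjusted p of 0.70. Muc4 had a log2 fold change of 0.05 and Muc20 of -0.14, with adjusted p of 0.96 and 0.78.

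**Figure D3:**
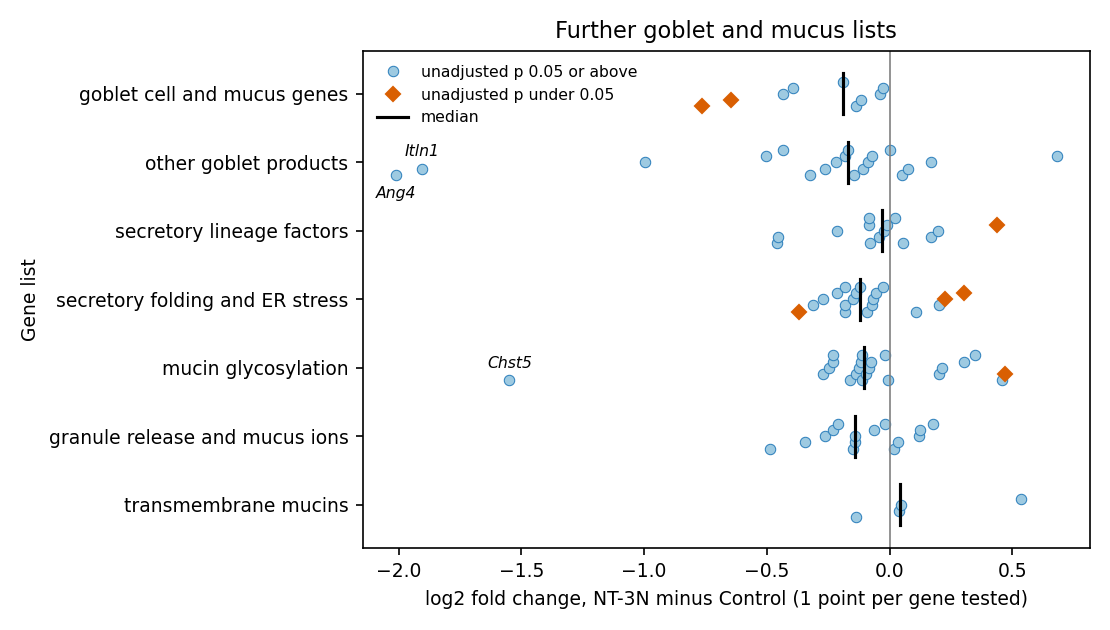
Log2 fold change of NT-3N over Control (x axis) for each gene tested in 7 lists (y axis), with diamonds for an unadjusted p under 0.05 in limma and black bars for list medians. No gene passed an adjusted p under 0.05 in limma, and the medians lie between -0.19 and 0.04. The points far to the left are Ang4, Itln1 and Chst5, a sulfotransferase at -1.55 that was well above background on 3 of 5 arrays.

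Markers of the other epithelial cells and of the wall were read beside these values. Absorptive colonocyte markers had centred means of 0.12 and -0.12 in Control and 0.13, -0.01 and -0.13 in NT-3N, so that NT-3N replicate 1, the lowest array for the goblet cell genes, was the highest here by a small margin over Control replicate 1. Enteroendocrine markers, of another secretory lineage that depends on Atoh1, had -0.22 and 0.27 in Control and -0.38, 0.10 and 0.23 in NT-3N, and 6 of 10 were lowest on NT-3N replicate 1. Among the enteroendocrine and absorptive markers both tests called 0 of 20, and 0 had an unadjusted p under 0.05. Smooth muscle markers had 0.20 and 0.24 in Control and -0.32, -0.05 and -0.07 in NT-3N, and 6 of 8 were lowest on NT-3N replicate 1. All 8 log2 fold changes were below 0, beside 53.6% of all features, with a median of -0.29. Either test called 0 of these 8 markers, and 3 had an unadjusted p under 0.05 in limma, beside 9.62% of all features. For 6 of the 8 smooth muscle markers all NT-3N arrays lay below Control, as for 14.8% of all features. Their summed signal was 452441 and 467608 in Control and 333612, 421380 and 393727 in NT-3N. B cell markers were low in Control replicate 2, with a centred mean of -1.56 beside 0.13 in Control replicate 1 and 0.50, 0.30 and 0.63 in NT-3N. Of the 8 tested, 7 had a log2 fold change above 0, the median was 1.06, and limma called 0 and the local-pooled-error test 2. Ms4a1 was instead low in both Control arrays, at 4.95 and 6.53 beside 9.54, 9.13 and 9.51 in NT-3N (limma adjusted p of 0.059). Pax5 was lowest in NT-3N replicate 3, at 6.19. The part of each of these marker lists in the values of the goblet cell genes was not tested.

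**Figure D4:**
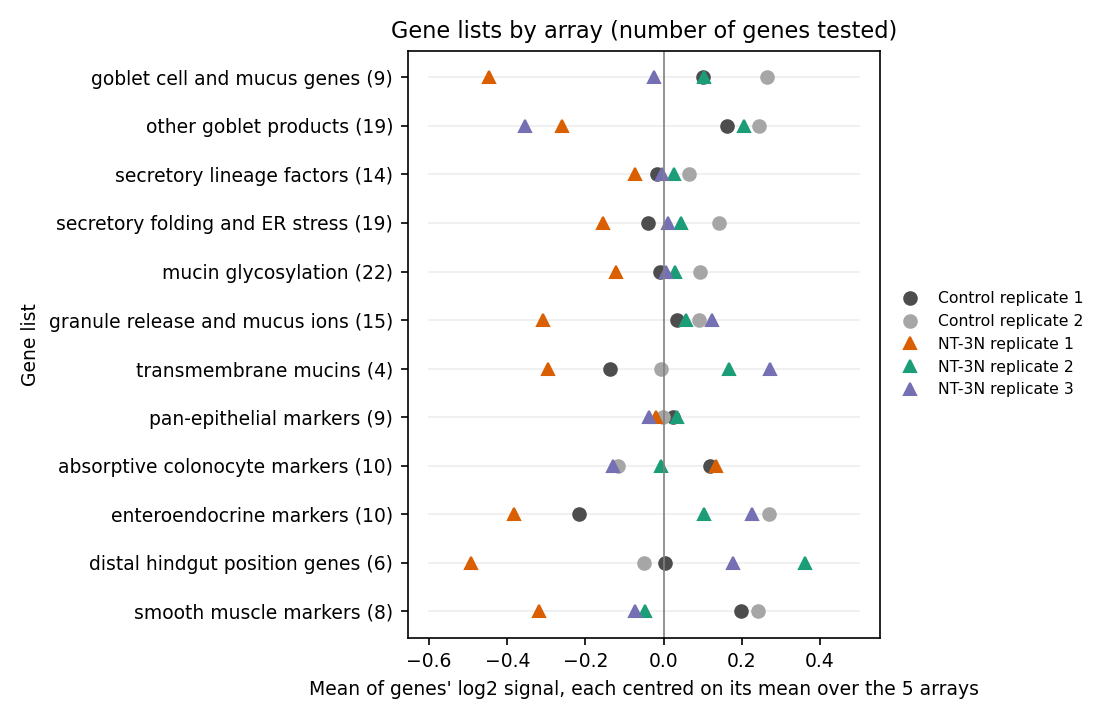
Mean over the genes of a list of the log2 signal centred on each gene's mean over the 5 arrays (x axis), for 12 lists (y axis, with the number of genes tested), with circles for Control and triangles for NT-3N. NT-3N replicate 1 is the lowest array for the goblet cell and mucus genes, at -0.45, and for the distal hindgut position genes, at -0.49. It is also the lowest for the enteroendocrine (-0.38), smooth muscle (-0.32), granule release (-0.31) and transmembrane mucin (-0.30) lists. By less, the same holds for the folding (-0.16), glycosylation (-0.12) and lineage factor (-0.07) lists. It is not the lowest for the other goblet products or the absorptive colonocyte markers, and the pan-epithelial markers stay between -0.04 and 0.03.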

How the data were processed

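Whole-colon RNA was hybridised to single-colour Agilent arrays. The authors extracted the spots with Agilent Feature Extraction 11.0.1.1, and the deposited scanner files hold a background-subtracted, detrended intensity per spot, unscaled between arrays, with flags for outlying, saturated and detected spots. The deposited table of log2 values for 37380 probes matched quantile-normalized processed signal, with a correlation of at least 0.99998 on each array and a median of 8.473, and served as an alternative only.

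Control and outlier spots (69 to 184 of 59305 noncontrol spots per array) were removed, log2 values were averaged per probe and quantile-normalized, and probes well above background on at least 2 arrays were kept. Accessions were matched to symbols of RefSeq GRCm38.p6, which named 32994 of 56605 probes. The build of the array design differs, so no probe coordinates are given. limma 3.58.1 in R 4.3.3 compared 3 NT-3N with 2 Control arrays (lmFit, eBayes with an intensity trend, two-sided, Benjamini-Hochberg over 32917 features). The study names a local-pooled-error test, which was run as an alternative. An exact permutation test of 1 gene cannot go below p = 0.1 here. The number of arrays limits the precision.

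All 9 genes and every probe of theirs are named. Of each further list, named genes are those called and up to 2 of the highest log2 fold changes above 0 and up to 2 of the lowest below 0 among genes well above background on all arrays, and the 5 genes most like the mean pattern are named. A gene that the rule names in the granule release list is not reported here. Chst5, Retnlb, Hoxb13, Hoxd13, Ms4a1 and Pax5 were named after their values were seen. The 9 genes and all lists were chosen with earlier results of these data known. Tuft, crypt stem and Paneth lists had medians of -0.14, -0.00033 and -0.03 with 0 called by limma. They had 2, 1 and 0 genes at an unadjusted p under 0.05 in limma. The local-pooled-error test called 0, 1 and 1, and its Paneth call was Itln1, which is also among the other goblet products. On these lists Muc6, Muc3, Muc3a, Muc16, Muc17, Prac1, Defa17, Pla2g2a and Ang5 matched no probe, and Gcnt4, Cdx1 and Muc15 did not pass the filter. The dose is not given here because the sources differ in its unit. The test was checked on simulated data. Alternatives covered scaling, background correction, the filter, the variance model, array weights, the replicate block, several probes per gene, the test and leaving out each array.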

Additional observations from a re-analysis of the deposited data

How the results depend on the processing

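Over 18 alternatives, limma called 0 of the 9 genes under each setting in which it was used. The local-pooled-error test called 2 and 2 of their probes. As differences of medians, Atoh1 was at -0.75 (adjusted p = 0.0185) and Spdef at -0.79 (0.00225). Across all alternatives the log2 fold change of Atoh1 lay between -0.97 and -0.56, with adjusted p from 0.0185 to 0.68, and that of Spdef between -0.87 and -0.49, with adjusted p from 0.00225 to 0.89. Clca1, Fcgbp and Tff3 kept a negative sign, from -0.68 to -0.10, -0.75 to -0.15 and -0.30 to -0.0047, and Muc2 ranged from -0.157 to 0.0418. In the 6 further lists the local-pooled-error test called 6 genes (Ang4, B3galt5, Itln1, Retnlb, Sval1 and Tgm3) where limma called 0, and leaving out 1 array gave 0 to 1 calls.

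The number of the 9 genes above 0 was 0 in the comparison as reported, 1 with array quality weights, 2 under the local-pooled-error test and 0 to 3 without 1 array, reaching 3 when Control replicate 2 or NT-3N replicate 1 was left out. Signs turned for Zg16 (0.11 with weights). Under the local-pooled-error test, which takes medians in place of means, Zg16 was at 0.14 and Agr2 at 0.0242. Leaving out 1 array, the log2 fold change ranged from -0.10 to 0.0418 for Muc2, from -0.17 to 0.18 for Zg16, from -0.30 to 0.0714 for Agr2, from -0.31 to 0.022 for Spink4, from -0.13 to 0.66 for Sval1 and from -0.13 to 0.23 for Muc4. A lone Control array was assumed to vary like the other group.

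Replicate numbers 1 and 2 occur in both groups and the labels give no pairing. Deviations of same-numbered arrays from their group means correlated at 0.13 and 0.04 over 2 pairs. The deviations of the 2 Control arrays mirror each other, so these values cannot show whether arrays were paired. With the replicate block, in which NT-3N replicate 3 has no partner, limma called 0 of 32917 features (2488 at an unadjusted p under 0.05). There, 1 of the 9 genes was above 0 (Spink4, 0.022), and Atoh1 was at -0.86 (adjusted p = 0.49) and Spdef at -0.87 (0.43). Sval1 was at -0.0854 and Muc4 at -0.11. An array without a partner adds nothing to these estimates, so they equal those without NT-3N replicate 3 and are no separate check.

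Normexp correction was run on the median spot signal, as the files hold no mean spot signal. All features called numbered 47 as reported, 2 without the filter on dim probes or without the intensity trend, 170 with array weights, 384 under the local-pooled-error test, and 31, 118, 87, 10 and 0 without Control 1, Control 2, NT-3N 1, NT-3N 2 and NT-3N 3.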
